A study of Mus musculus with 2 samples.

Results

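The T cell receptor signalling module is a set of 41 named genes that carry, amplify or restrain the signal of the T cell receptor. Its members were the array's gene spots whose gene name in the scanner files equals one of these symbols. Of the 41, 39 had at least 1 spot, 94 spots of 76 probes in all, among 28090 gene names, 41174 probes and 43379 gene spots on the array. The adaptor Themis and the inositol phosphate kinase Itpkb had no spot under these names and were not analysed here.

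The study compared Bcl11b-deficient with wild-type regulatory T cells (Tregs) of mice, on 2 two-colour arrays. On the first, called the Cd4Cre array, the deficient pool was Foxp3-Gfp+ Tregs sorted from Bcl11bF/F/Cd4Cre/Foxp3-GFP+ mice, and its wild-type pool was Foxp3-Gfp+ Tregs from 3 mice. On the other, called the Foxp3Cre array, the deficient pool was Tregs sorted from Bcl11bF/F/Foxp3Cre mice, and its wild-type pool was Tregs from 3 mice. All 4 pools carry the genetic background label C57BL\6. The labels give neither the age of the mice nor the number behind a deficient pool, and the sort gate of the Foxp3Cre array is not described. The labels show the reporter on the first array only, and the array of each Cre system was told from this. Cd4Cre deletes in developing T cells, so other T cells of these mice lack Bcl11b too, whereas Foxp3Cre deletes in cells that express Foxp3. With 1 array per Cre system and no dye swap, neither ratio can be checked against a replicate, and any dye bias runs the same way on both.

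As background, the T cell receptor signals through the CD3 chains, whose tails are phosphorylated by Lck and then recruit the kinase Zap70. Zap70 marks the adaptors Lat and Lcp2, on which Plcg1 makes the messengers that open the calcium, Ras and protein kinase C branches and end in NFAT, AP-1 and NF-kappaB. Phosphatases, diacylglycerol kinases, ubiquitin ligases and the surface proteins Cd5 and Cd6 hold the signal down. Tregs need this signal for their development in the thymus and for their suppressive activity. Bcl11b is a zinc finger transcription factor that T lineage cells need from commitment onwards.

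In each channel 47.7% to 56.3% of gene spots were well above background and no spot was saturated. Repeated spots of 1 probe had a median SD of 0.056 with Cd4Cre and 0.071 with Foxp3Cre (245 probes), which is spotting error only. Every ratio below is a log2 ratio, deficient over wild type, and the error given with one is the scanner software's error for that spot, which leaves out differences between mice. The targeted gene Bcl11b read -2.46 ± 0.30 with Cd4Cre and -1.82 ± 0.26 with Foxp3Cre. The labelled cell type was less even: the Treg factor Foxp3 read -3.57 ± 0.44 and -0.20 ± 0.21, and 5 of 6 Treg markers were at least 2-fold lower with Cd4Cre and 0 of 6 with Foxp3Cre. Values with Cd4Cre and with Foxp3Cre are those of the arrays so named, and a pair of ratios with no other word gives these 2. A log2 signal is the normalized brightness of a probe in 1 pool, and signals of different probes are not levels that can be set against each other.

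The arrays read each gene through 60-base probes, and the results below turn on which probe was read. The probes shown first have their coordinates over a span longer than 60 bases in the files (mm9), as a probe across an exon junction has, and all list a RefSeq mRNA. They are the probes of Cd3d and Cd3g, whose ratios were within 2-fold under loess but not all under median centring, of Vav1, and the dimmer probes of Cd6 and Plcg1. The last 3 lie in 1 unbroken stretch and list no RefSeq mRNA, only another sequence record such as a cDNA clone. They read lower than a brighter probe of the same gene on the Foxp3Cre array. No mm9 annotation was used here, so exon and intron are not given for them. All are written 5′ to 3′ as the files give them.
Cd3d, chr9:44794171-44794402, plus strand: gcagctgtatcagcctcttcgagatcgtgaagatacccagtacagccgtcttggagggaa
Cd3g, chr9:44781716-44782300, minus strand: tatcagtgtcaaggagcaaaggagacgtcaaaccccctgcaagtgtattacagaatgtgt
Vav1, chr17:57451288-57454690, plus strand: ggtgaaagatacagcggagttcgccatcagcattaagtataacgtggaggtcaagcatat
Cd6, chr19:10867422-10868678, minus strand: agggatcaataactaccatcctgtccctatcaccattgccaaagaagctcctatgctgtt
Plcg1, chr2:160587192-160587344, plus strand: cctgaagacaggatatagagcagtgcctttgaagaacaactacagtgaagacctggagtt
Cd3e, chr9:44811984-44812043, minus strand: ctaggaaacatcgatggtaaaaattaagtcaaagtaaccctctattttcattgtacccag
Ptprc, chr1:140020911-140020970, minus strand: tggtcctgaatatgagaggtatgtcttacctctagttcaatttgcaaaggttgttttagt
Ppp3cb, chr14:21334722-21334781, minus strand: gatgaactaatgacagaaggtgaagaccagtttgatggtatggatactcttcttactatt

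Promoters were read from RefSeq (GRCm38.p6, windows of 300 bases around a gene's start), and 36 of the 39 members had at least 1. The neighbours Cd3g and Cd3d lie 1338 bases apart on chromosome 9 in opposite directions and Cd5 lies 50313 bases from Cd6 on chromosome 19. They are printed because Cd3d and Cd3g had like ratios, as did Cd5 and Cd6, while the ratios of the 2 pairs differed. Capitals mark the ETS core AGGAAG or its reverse complement CTTCCT, and the RUNX core TGTGGT or its reverse complement ACCACA was searched in the same way. ETS and RUNX are factor families of T cells.
Cd3d promoter, chr9:44981536-44981835, plus strand: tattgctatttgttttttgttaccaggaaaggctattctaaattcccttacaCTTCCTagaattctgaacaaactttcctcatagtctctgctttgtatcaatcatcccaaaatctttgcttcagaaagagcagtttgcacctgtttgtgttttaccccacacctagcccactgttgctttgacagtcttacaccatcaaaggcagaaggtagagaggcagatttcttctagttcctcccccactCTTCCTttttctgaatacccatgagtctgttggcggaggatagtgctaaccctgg
Cd3g promoter, chr9:44980382-44980681, minus strand: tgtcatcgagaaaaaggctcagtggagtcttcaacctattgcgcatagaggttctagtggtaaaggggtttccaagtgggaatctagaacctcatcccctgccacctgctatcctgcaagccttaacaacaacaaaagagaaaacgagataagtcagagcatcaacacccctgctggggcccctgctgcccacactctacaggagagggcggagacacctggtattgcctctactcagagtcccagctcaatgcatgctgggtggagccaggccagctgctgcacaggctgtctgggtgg
Cd5 promoter, chr19:10738925-10739224, minus strand: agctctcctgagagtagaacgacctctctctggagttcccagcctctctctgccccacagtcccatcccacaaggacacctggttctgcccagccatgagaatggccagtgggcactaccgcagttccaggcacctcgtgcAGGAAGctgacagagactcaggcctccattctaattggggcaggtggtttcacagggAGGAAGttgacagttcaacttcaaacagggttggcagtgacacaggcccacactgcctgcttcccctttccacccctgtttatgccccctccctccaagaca
The ETS core was found 2 times at Cd3d, 0 times at Cd3g and 2 times at Cd5, and the RUNX core 0 times in each of the 3 windows. Over the module, 37 of 52 promoters (71.2%) held the ETS core, against 35.4% of all 32851 promoters of this length, and 6 of 52 (11.5%) held the RUNX core, against 16.8%. A match describes these letters in this window only.

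Under loess most of the module was lower in the deficient pools and 0 of its genes were at least 2-fold higher on either array, a balance that changed under median centring. On the Cd4Cre array 11 of 39 members (28.2%) were at least 2-fold lower, against 10.6% of 15915 detected genes, and 0 of 39 were at least 2-fold higher, against 11.4%. With Foxp3Cre, 11 of 39 (28.2%) were at least 2-fold lower, against 11.5% of 15231 detected genes, and 0 of 39 at least 2-fold higher, against 2.94%. Detection required a well-above-background flag for the brightest probe in 1 channel or more, and all 39 had it on both arrays. The median member read -0.67 on the Cd4Cre array, where all genes had a median of -0.05, and -0.70 on the Foxp3Cre array, where all genes had one of -0.08. Below 0 were 34 of 39 members with Cd4Cre, against 8400 of 15915 detected genes, and 31 of 39 with Foxp3Cre, against 8318 of 15231. In such pools fewer T cells and less RNA per T cell cannot be told apart. These counts depend on the scaling. With median centring in place of loess, 4 members were past 2-fold lower and 3 past 2-fold higher with Cd4Cre (8.33% and 18.0% of all genes), and 4 lower and 4 higher with Foxp3Cre (6.75% and 13.4%).

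**Figure D1:**
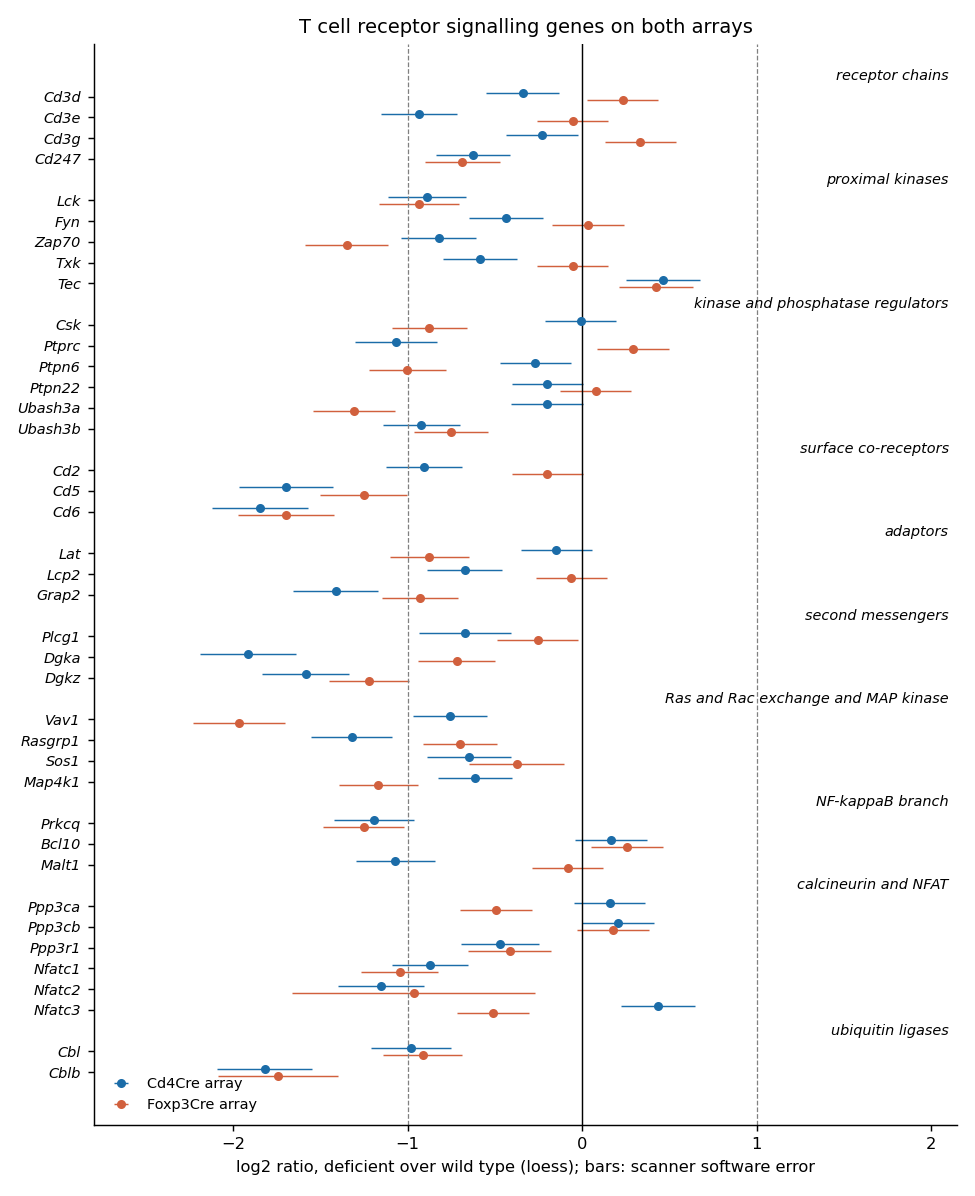
Log2 ratio of deficient over wild type (horizontal axis) for each of the 39 members, grouped by role, on the Cd4Cre array (blue) and the Foxp3Cre array (orange). Bars are the scanner software's error and dashed lines mark 2-fold. Under loess, as drawn, Cd5, Cd6, Dgkz, Prkcq and Cblb lie left of the lower 2-fold line on both arrays (only Cblb of these under median centring), and the highest member is Tec at 0.46 and 0.43.

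The receptor chains, which assemble with the antigen-binding chains and carry the signal into the cell, stayed within 2-fold on both arrays under loess when read from their brightest probes, whereas median centring put Cd3d at 1.02 and 1.60 and Cd3g at 0.95 and 1.52. Cd3d read 16.77 in the deficient and 17.11 in the wild-type pool with Cd4Cre, and 17.08 in the deficient and 16.85 in the wild-type pool with Foxp3Cre (log2 signals). Its neighbour Cd3g had 16.19 in the deficient and 16.42 in the wild-type pool with Cd4Cre, and 16.19 in the deficient and 15.86 in the wild-type pool with Foxp3Cre. Both thus had their deficient pool lower on one array and higher on the other, with ratios of -0.34 ± 0.21 and 0.23 ± 0.20 for Cd3d and of -0.23 ± 0.21 and 0.33 ± 0.20 for Cd3g. For Cd3d this was lost with the software ratio, which was -0.03 with Foxp3Cre. Cd3e, their partner chain, had 12.92 in the deficient and 13.86 in the wild-type pool with Cd4Cre, a ratio of -0.93 ± 0.22. With Foxp3Cre its pools were close, at 12.43 in the deficient and 12.48 in the wild-type pool (-0.05 ± 0.20), but its other probe read -2.03 ± 0.29 there and the mean of both was -1.04, past 2-fold lower. Cd247, the zeta chain that holds most of the phosphorylation sites, was lower in both deficient pools under loess and higher in both under median centring (0.25 and 0.28). It had 14.87 in the deficient and 15.49 in the wild-type pool with Cd4Cre (-0.62 ± 0.21), and 14.79 in the deficient and 15.48 in the wild-type pool with Foxp3Cre (-0.69 ± 0.21).

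Of the proximal kinases, Lck and Zap70 were lower in both deficient pools under loess, but Lck read 0.41 and 0.35 under median centring. Lck, which phosphorylates the CD3 tails, had 16.27 in the deficient and 17.16 in the wild-type pool with Cd4Cre, and 16.09 in the deficient and 17.03 in the wild-type pool with Foxp3Cre. Its ratios of -0.89 ± 0.22 and -0.94 ± 0.23 were nearly equal. Zap70, which binds the phosphorylated tails, had 14.12 in the deficient and 14.94 in the wild-type pool with Cd4Cre (-0.82 ± 0.22). On the Foxp3Cre array it had 13.52 in the deficient and 14.87 in the wild-type pool, a ratio of -1.35 ± 0.24, or 2.55-fold lower. The Src family kinase Fyn read -0.44 ± 0.21 and 0.03 ± 0.20 over 10 spots of its only probe, and the Tec family kinase Txk -0.59 ± 0.21 and -0.06 ± 0.20. Tec was the highest member on both arrays under loess, at 0.46 ± 0.21 and 0.43 ± 0.21, and its other probe read 0.36 and 0.33. Under median centring Nfatc3 (1.17) and Ptprc (1.61) were the highest, and with the software ratio Nfatc3 (0.55) was with Cd4Cre. Txk and Tec lie 2726 bases apart on chromosome 5 (GRCm38.p6).

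Of the regulators of these kinases, Ptprc was past 2-fold lower with Cd4Cre, where median centring turned it to 0.26, and Ptpn6 and Ubash3a with Foxp3Cre. Ptprc encodes CD45, the phosphatase of all white blood cells that keeps Lck active. Its brightest probe, printed on 10 spots, had 16.30 in the deficient and 17.36 in the wild-type pool with Cd4Cre (-1.07 ± 0.23). With Foxp3Cre, it had 16.87 in the deficient and 16.58 in the wild-type pool (0.29 ± 0.20), the opposite direction. The mean over its 4 probes was -0.46 and -0.41, within 2-fold and below 0 on both arrays, and the software ratio with Foxp3Cre was 0.01. Csk, the kinase that switches Lck off, had 11.95 in the deficient and 11.96 in the wild-type pool with Cd4Cre (-0.01 ± 0.20), and 12.68 in the deficient and 13.56 in the wild-type pool with Foxp3Cre (-0.88 ± 0.22). Ptpn6, the phosphatase SHP-1, had 14.38 in the deficient and 14.65 in the wild-type pool with Cd4Cre (-0.27 ± 0.21). With Foxp3Cre, it had 13.98 in the deficient and 14.98 in the wild-type pool, 2.01-fold lower with an error of 0.22 on the log2 scale, just past the threshold. Ubash3a, which dampens receptor signals in T cells, had 11.04 in the deficient and 11.24 in the wild-type pool with Cd4Cre (-0.20 ± 0.21). On the Foxp3Cre array it had 10.64 in the deficient and 11.95 in the wild-type pool, or -1.31 ± 0.24. Another probe of each read -1.45 ± 0.25 and -1.54 ± 0.25 for Csk, -1.10 ± 0.24 and -1.62 ± 0.27 for Ptpn6, and -1.32 ± 0.25 and -0.53 ± 0.30 for Ubash3a. Ubash3b, which dephosphorylates Zap70, read -0.92 ± 0.22 and -0.75 ± 0.21, and Ptpn22, a phosphatase of Lck and Zap70, -0.20 ± 0.21 and 0.08 ± 0.20.

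Among the surface proteins, Cd5 and Cd6 were at least 2-fold lower in both deficient pools under loess, whereas median centring gave -0.31 and 0.07 for Cd5 and -0.43 and -0.39 for Cd6. Cd5, an inhibitory scavenger-type receptor set by the strength of receptor signalling, had 16.16 in the deficient and 17.86 in the wild-type pool with Cd4Cre. With Foxp3Cre, it had 16.11 in the deficient and 17.36 in the wild-type pool. These are ratios of -1.70 ± 0.27 (3.24-fold lower) and -1.25 ± 0.25 (2.38-fold lower). Its neighbour Cd6, a related receptor, had 16.16 in the deficient and 18.00 in the wild-type pool with Cd4Cre, and 15.77 in the deficient and 17.47 in the wild-type pool with Foxp3Cre. The brightest probe of Cd6 read -1.85 ± 0.28 (3.60-fold lower) and -1.70 ± 0.27 (3.24-fold lower), and the junction-spanning probe printed above read -2.44 ± 0.32 and -1.79 ± 0.26. Both probes of Cd6 gave the same direction on both arrays. Cd2, an adhesion receptor of T and NK cells, read -0.90 ± 0.22 with Cd4Cre and -0.20 ± 0.20 with Foxp3Cre.

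Of the adaptors, Lat was near even with Cd4Cre and Lcp2 with Foxp3Cre, where median centring gave 1.02 for Lat and 0.85 for Lcp2. Lat, the membrane scaffold, had 16.19 in the deficient and 16.34 in the wild-type pool with Cd4Cre (-0.15 ± 0.21), and 15.44 in the deficient and 16.31 in the wild-type pool with Foxp3Cre (-0.88 ± 0.23). Lcp2, the cytosolic scaffold SLP-76, had 14.97 in the deficient and 15.65 in the wild-type pool with Cd4Cre (-0.67 ± 0.21), and 14.90 in the deficient and 14.97 in the wild-type pool with Foxp3Cre (-0.06 ± 0.20). Grap2 (Gads), which joins these scaffolds, was read from a probe without a RefSeq mRNA. This probe had 11.45 in the deficient and 12.86 in the wild-type pool with Cd4Cre (-1.41 ± 0.25), and 12.44 in the deficient and 13.37 in the wild-type pool with Foxp3Cre (-0.93 ± 0.22). Another probe of nearly the same brightness, which lists a RefSeq mRNA, read 0.39 ± 0.21 and -0.13 ± 0.20, so the direction of Grap2 on the Cd4Cre array depends on the probe.

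The genes of the lipid messengers included both diacylglycerol kinases, which remove the diacylglycerol that Plcg1 makes and so limit Ras and protein kinase C. Dgka had 15.43 in the deficient and 17.35 in the wild-type pool with Cd4Cre, the lowest brightest-probe ratio of the module there under loess at -1.91 ± 0.27 (3.77-fold lower). Cd6 was the lowest there with the software ratio (-2.01) and by the mean over probes (-2.15), and Cblb under median centring (-1.67). With Foxp3Cre, Dgka had 15.89 in the deficient and 16.61 in the wild-type pool (-0.72 ± 0.22, but 0.50 under median centring). Dgkz had 12.75 in the deficient and 14.34 in the wild-type pool with Cd4Cre (-1.59 ± 0.25), and 11.59 in the deficient and 12.81 in the wild-type pool with Foxp3Cre (-1.22 ± 0.23). It was thus past 2-fold on both, at 3.00-fold and 2.33-fold lower, and read -1.10 and -0.87 under median centring. Plcg1 was dim: its brighter probe had 8.38 in the deficient and 9.05 in the wild-type pool with Cd4Cre (-0.67 ± 0.26), and 9.08 in the deficient and 9.34 in the wild-type pool with Foxp3Cre (-0.26 ± 0.23). The junction-spanning probe of Plcg1 printed above read -1.76 ± 0.32 with Cd4Cre and -1.44 ± 0.40 with Foxp3Cre, where its deficient channel was not well above background.

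**Figure D2:**
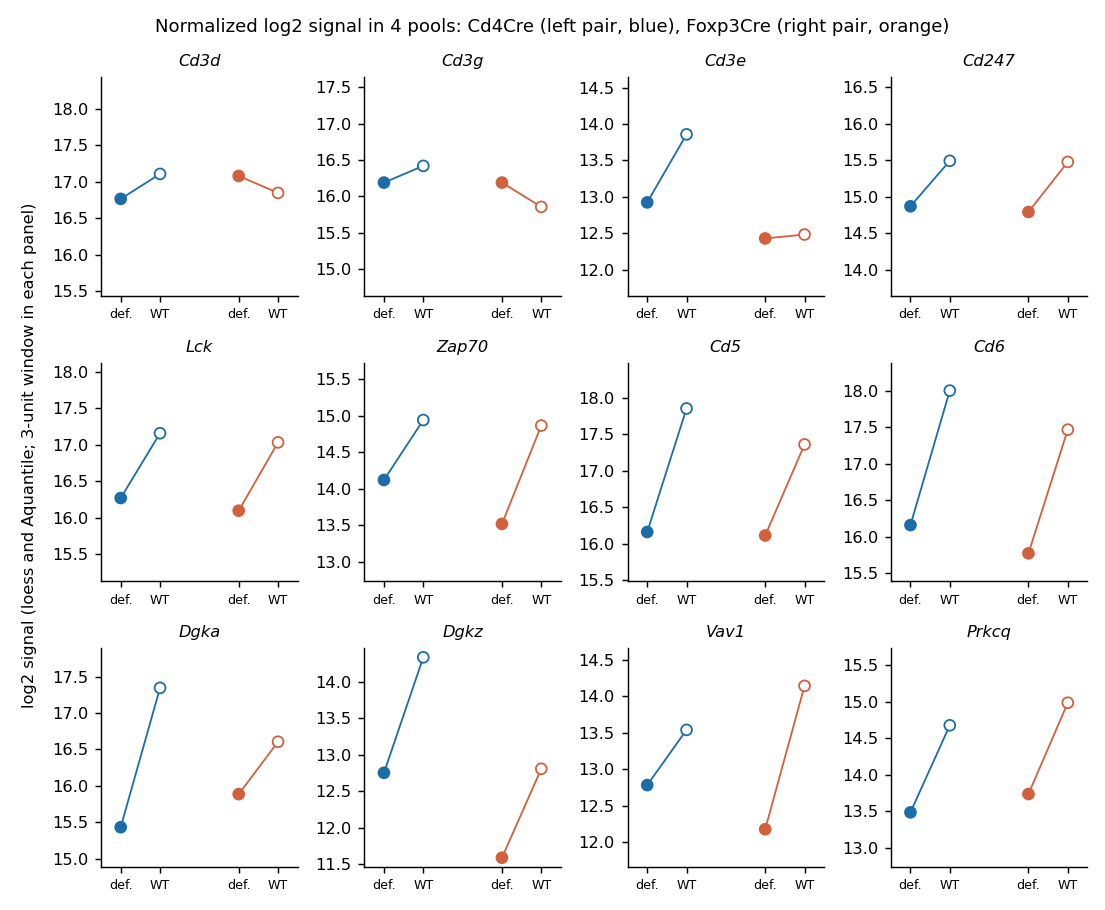
Normalized log2 signal (vertical axis, a window of the same height in each panel) of 12 members in the 4 pools, with the deficient pool (filled) left of its wild-type pool (open) for the Cd4Cre array (blue) and the Foxp3Cre array (orange). Each point is 1 pool, and slopes are those under loess, which median centring turns for Cd247 and Lck on both arrays, for Cd3d and Cd3g with Cd4Cre, and for Cd3e, Cd5 and Dgka with Foxp3Cre. Cd3d and Cd3g slope opposite ways on the 2 arrays, whereas Cd5, Cd6, Dgkz and Prkcq lie lower in the deficient pool on both.

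The exchange factors and the MAP kinase activator of this set were lower in both deficient pools under loess, but median centring put Rasgrp1 at 0.08 with Foxp3Cre and Map4k1 at 0.28 with Cd4Cre. Vav1, which activates Rac and organizes actin, had 12.78 in the deficient and 13.54 in the wild-type pool with Cd4Cre (-0.76 ± 0.21). On the Foxp3Cre array it had 12.18 in the deficient and 14.15 in the wild-type pool, the lowest brightest-probe ratio of the module there under loess at -1.97 ± 0.27 (3.91-fold lower). Cblb was the lowest there under median centring (-1.77) and by the mean over probes (-1.74), and Nfatc2 with the software ratio (-2.44). The other probe of Vav1 read -0.65 ± 0.21 and -1.43 ± 0.24. Rasgrp1, the diacylglycerol-driven Ras exchange factor, had 13.41 in the deficient and 14.74 in the wild-type pool with Cd4Cre (-1.32 ± 0.23), and 14.07 in the deficient and 14.77 in the wild-type pool with Foxp3Cre (-0.70 ± 0.21). Map4k1 (HPK1), a kinase that restrains Lcp2, had 14.94 in the deficient and 15.56 in the wild-type pool with Cd4Cre (-0.61 ± 0.21). It had 14.16 in the deficient and 15.33 in the wild-type pool with Foxp3Cre (-1.17 ± 0.23). Vav1 and Map4k1 were thus lower on the Foxp3Cre array than on the Cd4Cre array, and Rasgrp1 the other way, though the difference was not tested. Sos1, the other Ras exchange factor, was dim and read -0.65 ± 0.24 and -0.38 ± 0.27.

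In the branch to NF-kappaB, the brightest probe under loess put Prkcq at least 2-fold lower in both deficient pools. Read in this way, Malt1 was so on the Cd4Cre array alone and Bcl10 on neither. Median centring left Prkcq at -0.58 and -0.48. Prkcq, the protein kinase C theta of the T cell synapse, had 13.48 in the deficient and 14.68 in the wild-type pool with Cd4Cre (-1.19 ± 0.23). With Foxp3Cre, it had 13.74 in the deficient and 14.99 in the wild-type pool (-1.25 ± 0.23). Its other RefSeq probe read -0.50 ± 0.21 and -0.90 ± 0.22, so all these probe values were below 0 but not all past 2-fold. Bcl10, the linker downstream of it, had 14.56 in the deficient and 14.40 in the wild-type pool with Cd4Cre (0.16 ± 0.21), and 14.35 in the deficient and 14.09 in the wild-type pool with Foxp3Cre (0.25 ± 0.21). Malt1, the protease of the same complex, had 12.21 in the deficient and 13.28 in the wild-type pool with Cd4Cre (-1.07 ± 0.23), and 13.57 in the deficient and 13.65 in the wild-type pool with Foxp3Cre (-0.08 ± 0.20). The other probe of Malt1 read -0.53 and -1.74, and that of Bcl10 -0.72 and -1.07. Which array put Malt1 past 2-fold, and the direction of Bcl10, thus depend on the probe.

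Read from their brightest probes, the subunits of calcineurin, the calcium-driven phosphatase, stayed within 2-fold under loess and median centring alike. With Foxp3Cre another probe of Ppp3cb read -1.53 ± 0.25, and -1.37 under median centring. Another probe of Ppp3r1 read 0.85 ± 0.22 there, and 1.02 under median centring. Ppp3cb had 13.65 in the deficient and 13.44 in the wild-type pool with Cd4Cre (0.21 ± 0.21), and 13.47 in the deficient and 13.29 in the wild-type pool with Foxp3Cre (0.18 ± 0.21). The regulatory subunit Ppp3r1 had 9.37 in the deficient and 9.85 in the wild-type pool with Cd4Cre (-0.47 ± 0.22), and 8.98 in the deficient and 9.39 in the wild-type pool with Foxp3Cre (-0.42 ± 0.24). Ppp3ca read 0.16 ± 0.21 and -0.49 ± 0.21. Of its substrates, the NFAT factors, Nfatc2 was past 2-fold lower with Cd4Cre and Nfatc1, just past the threshold under loess, with Foxp3Cre. Nfatc1 had 13.20 in the deficient and 14.07 in the wild-type pool with Cd4Cre (-0.87 ± 0.22), and 12.53 in the deficient and 13.57 in the wild-type pool with Foxp3Cre (-1.05 ± 0.22). Its other probe read -0.80 ± 0.22 and -0.39 ± 0.21. With Foxp3Cre the software ratio of Nfatc1 was -0.93, and median centring gave -0.55, both within 2-fold. Nfatc2 had 9.44 in the deficient and 10.60 in the wild-type pool with Cd4Cre (-1.15 ± 0.25). With Foxp3Cre its deficient channel was not well above background (measured signals 7.35 in the deficient and 8.31 in the wild-type pool), and it was at least 1.27-fold lower. Another probe of Nfatc2, which lists a RefSeq mRNA, read -0.23 ± 0.25 and 0.17 ± 0.41. The brightest probe of Nfatc3 read 0.43 ± 0.21 and -0.51 ± 0.21 under loess, higher in one deficient pool and lower in the other. Another probe of Nfatc3 read -0.30 ± 0.21 and -0.67 ± 0.22, lower in both. Median centring put the brightest probe at 1.17 and 0.31, higher in both.

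Both ubiquitin ligases of the Cbl family, which tag activated receptors and kinases for removal, were lower in both deficient pools under both scalings. Cblb, which sets the need for costimulation, had 10.83 in the deficient and 12.65 in the wild-type pool with Cd4Cre (-1.82 ± 0.27, 3.53-fold lower). On the Foxp3Cre array its deficient channel was not well above background (7.94 in the deficient and 9.68 in the wild-type pool), and it was at least 3.27-fold lower. Such a bound sets the brighter pool against the lowest signal well above background in the dim channel, or against the dim signal where that is higher. Cblb was read from a probe that lists no RefSeq mRNA, and its other probe was not well above background on either array. Cbl read -0.98 ± 0.23 and -0.92 ± 0.23.

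Over both arrays, 5 of 39 members were at least 2-fold lower on both, namely Cd5, Cd6, Dgkz, Prkcq and Cblb, against 4.57% of 14410 genes detected on both. At least 2-fold higher on both were 0 of 39, against 1.34%. The sign was the same on both arrays for 32 of 39 members, against 9819 of 14410 genes. Of the members, 29 were lower and 3 (Tec, Bcl10 and Ppp3cb) higher in both deficient pools, against 5466 and 4353 of all genes. By the mean over probes, Bcl10 turned to -0.28 and -0.41, and Ppp3cb to -0.36 with Foxp3Cre. The 5 genes lower on both include Cd5, Cd6, Dgkz and Cblb, which restrain receptor signalling, and Prkcq, which transmits it. The mean ratio of both arrays was tested against 0 with limma over all 14410 genes, which leaves 1 residual degree of freedom and counts the difference between Cre systems as spread. No member passed a Benjamini-Hochberg adjusted p of 0.05 in limma (0 of 39, and 0 of all genes, where 16 members and 3247 genes had an unadjusted p under 0.05). The lowest adjusted p of limma was 0.104, which Cblb, Cd6, Cd5 and Dgkz shared. Their mean ratios were -1.78 ± 0.33, -1.77 ± 0.33, -1.47 ± 0.33 and -1.40 ± 0.33 (moderated SE, 2 arrays). Limma pulls the spread of each gene toward a value common to all genes, so these SEs and p-values do not rest on the gene's own 2 ratios alone. Prkcq followed with an adjusted p of 0.108. Under median centring, limma called 311 genes (2.16%), of which 1 was a member, Cblb (adjusted p = 0.0467).

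**Figure D3:**
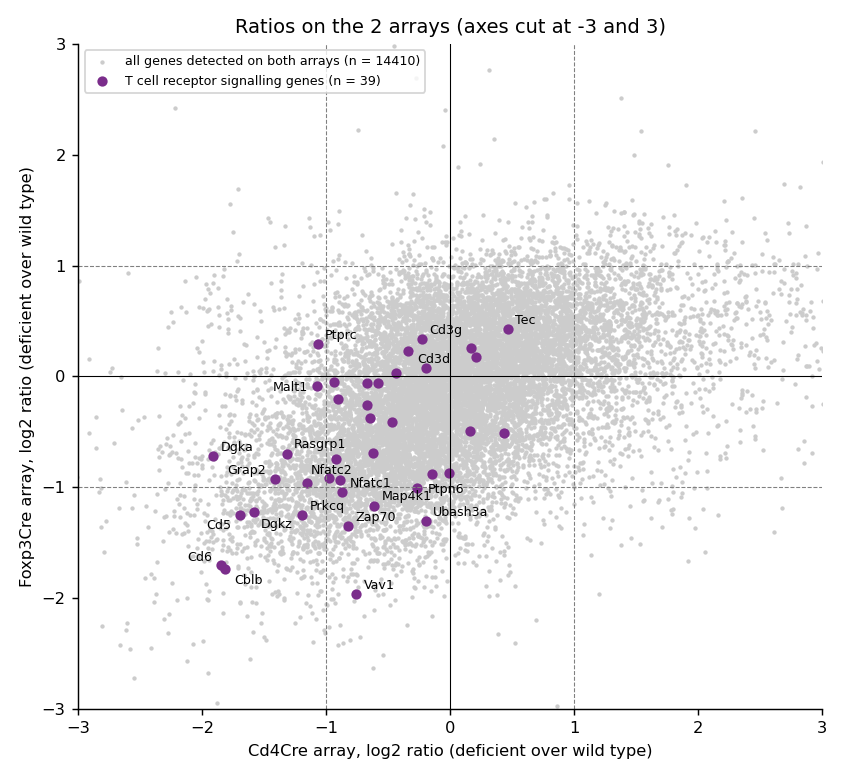
Log2 ratio on the Cd4Cre array (horizontal axis) against that on the Foxp3Cre array (vertical axis) for the 39 members (purple) and all 14410 genes detected on both arrays (grey). Dashed lines mark 2-fold. Under loess, as drawn, the members sit mostly in the lower left (median centring shifts them up, with 1 past both upper lines), with 5 past both lower lines and none past an upper line, and Ptprc, Cd3d and Cd3g lie above 0 on the Foxp3Cre array only.

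The direction of the bright members depended on the scaling. Under median centring, the median of all 986 genes with a mean log2 signal of at least 15 was 1.30 with Cd4Cre and 1.13 with Foxp3Cre, whereas loess set it to 0.16 and 0.05. The module had 11 members in this range: Cd247, Cd3d, Cd3g, Cd5, Cd6, Dgka, Lat, Lck, Lcp2, Ptpn22 and Ptprc. Their median was -0.67 and -0.69 under loess but 0.26 and 0.50 under median centring, each below the median of all genes of that brightness. The other 28 members had medians of -0.72 and -0.72 under loess and of -0.36 and -0.31 under median centring. The all-gene median shifted by 0.12 and 0.25 with median centring, and the members' median then lay 0.21 and 0.10 below that of all genes, compared with 0.62 and 0.62 below it under loess. Under this scaling Cd3d read 1.02 and 1.60, Ptprc 0.26 and 1.61, and Cd5 -0.31 and 0.07.

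Differences between members of like brightness held under all 11 settings run. These pairs were chosen after their values were seen, and since loess and median centring differ by a shift that depends on brightness, this shift largely cancels within such a pair by construction. Cd5 minus Cd3d was -1.35 with Cd4Cre (from -1.45 to -1.33 over the settings) and -1.48 with Foxp3Cre (-1.54 to -1.48). Cd6 minus Cd3d was -1.50 (-1.80 to -1.45) and -1.93 (-2.0 to -1.93). Dgka minus Cd3g was -1.68 (-1.69 to -1.66) with Cd4Cre and -1.05 (-1.05 to -1.01) with Foxp3Cre. Lck minus Cd3d was smaller on the Cd4Cre array, at -0.55 (-0.61 to -0.55), than on the Foxp3Cre array, at -1.17 (-1.25 to -1.14). Zap70 minus Bcl10 was -0.99 (-1.04 to -0.54) and -1.60 (-1.65 to -0.94), and Vav1 minus Ppp3cb -0.96 (-1.05 to -0.63) and -2.14 (-2.19 to -1.34). Dgkz minus Ppp3ca was -1.74 (-1.78 to -1.73) and -0.73 (-0.87 to -0.72). Such a gap is between the probes read for a pair of genes, on an array without a replicate. The other probe of Bcl10 read -0.72 and -1.07, and the probes of Ppp3cb ran from -1.53 to 0.18 with Foxp3Cre. A gap thus shows unequal ratios of these probes, not by itself unequal change of the genes. It does not show that either gene stayed even.

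**Figure D4:**
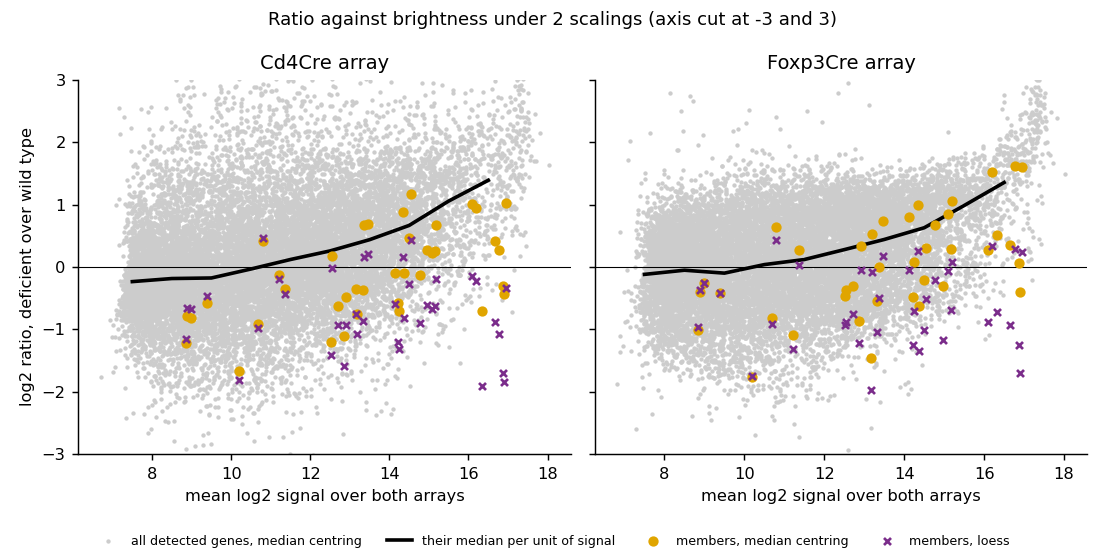
Log2 ratio (vertical axis) against mean log2 signal over both arrays (horizontal axis) for all detected genes under median centring (grey, with their median per unit of signal as a line), and for the members under median centring (yellow) and loess (purple crosses). Under median centring the line climbs with brightness, and genes with a signal of at least 15 have medians of 1.30 and 1.13.

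Probes of 1 member could disagree. This was counted for the members only, so no share over all genes stands beside the counts. Of the members with at least 2 probes above background in both channels, 6 of 22 with Cd4Cre and 7 of 19 with Foxp3Cre had probes more than 1 apart on the log2 scale. On the Cd4Cre array these were Cd247 (-1.87 to -0.02), Csk (-1.45 to -0.01), Grap2 (-1.41 to 0.39), Plcg1 (-1.76 to -0.67), Ptprc (-1.07 to 0.50) and Ubash3a (-1.32 to -0.20). With Foxp3Cre they were Bcl10 (-1.07 to 0.25), Cd247 (-1.10 to 0.30), Cd3e (-2.03 to -0.05), Malt1 (-1.74 to -0.08), Ppp3cb (-1.53 to 0.18), Ppp3r1 (-0.42 to 0.85) and Ptprc (-1.84 to 0.43). Repeated spots of 1 probe varied far less than this, as the spot SDs above show. The clone-type probes of Cd3e, Ptprc and Ppp3cb printed above gave the lowest value of their gene on the Foxp3Cre array, at -2.03 ± 0.29, -1.84 ± 0.27 and -1.53 ± 0.25. On the Cd4Cre array the same 3 probes read -0.89 ± 0.23, -0.23 ± 0.21 and 0.10 ± 0.20.

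Of the 76 member probes, 57 list a RefSeq mRNA and 19 do not. Among members with both kinds above background in both channels, the kind without one was lower in 8 of 13 members with Cd4Cre and in 8 of 10 with Foxp3Cre (61.5% and 80.0%). Over all genes with both kinds, it was lower in 58.6% of 1367 and 56.5% of 1166 genes. The median difference was -0.56 and -0.73 for the members, and -0.14 and -0.08 for all genes. At least 1 lower on the log2 scale were 4 of 13 and 4 of 10 members (30.8% and 40.0%), against 11.6% and 16.0% of all genes. Median GC content was taken over the probes of all members above background in both channels, not only of the members compared here. Without and with a RefSeq mRNA it was 36.7% and 44.2% on the Cd4Cre array, and 38.3% and 41.7% on the Foxp3Cre array. The comparison of the 2 kinds of probe was made after the values were seen, and the part of GC content or transcript type was not tested. Read from the brightest probe with a RefSeq mRNA instead, which 37 members have, 9 were at least 2-fold lower with Cd4Cre and 11 with Foxp3Cre, against 9.68% and 9.58% of all genes so read, and 5 on both, against 417 of 10793 genes.

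**Figure D5:**
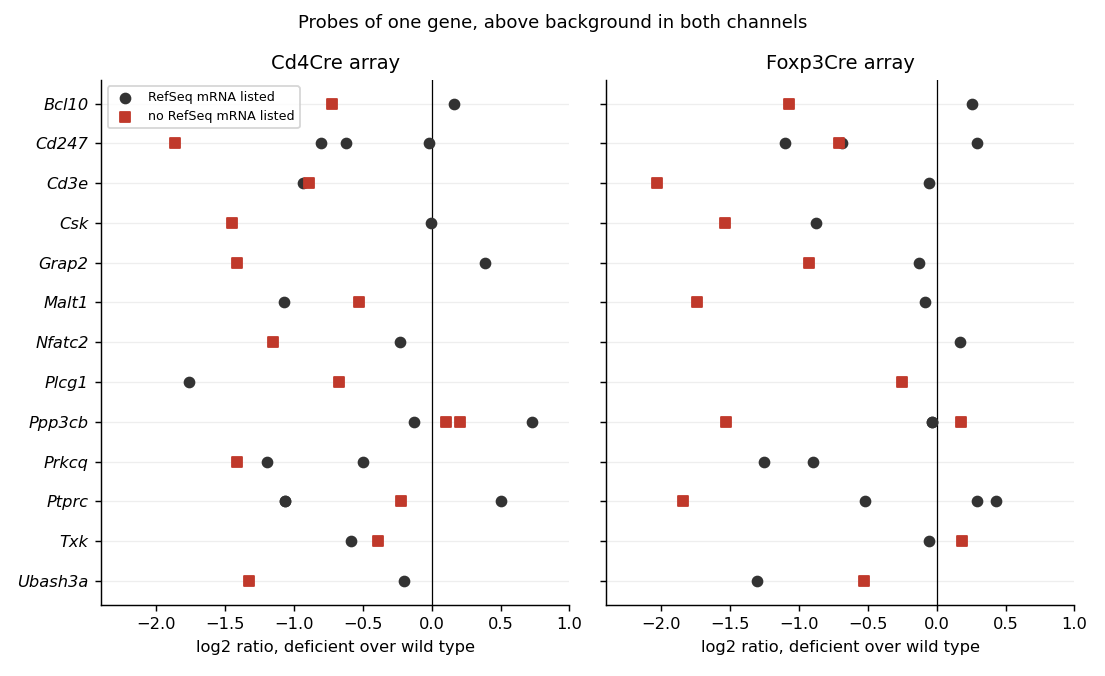
Log2 ratio (horizontal axis) of every probe above background in both channels for the 13 members that have both kinds of probe, on the Cd4Cre array (left) and the Foxp3Cre array (right). Black circles are probes that list a RefSeq mRNA and red squares those that do not. The red squares of Cd3e, Ptprc and Malt1 lie at -2.03, -1.84 and -1.74 on the Foxp3Cre array. Ppp3cb has a red square at -1.53 there and another, from its brightest probe, at 0.18.

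Other genes of the pathway, outside the module, were read in the same way. Of 65 listed genes 61 had a probe and 60 were detected on each array. Of these, 12 (20.0%) lay past 2-fold lower and 0 past 2-fold higher on each array, against 10.6% and 11.5% of all genes lower, with medians of -0.44 and -0.66. At least 2-fold lower on both arrays were 8 genes, against 4.57% of all genes. Among them Ikbkb, a kinase that activates NF-kappaB, read -1.52 ± 0.25 and -1.13 ± 0.23. Of the calcium branch, the inositol trisphosphate receptors Itpr2 (-1.91 ± 0.27 and -1.42 ± 0.24) and Itpr3 (-1.86 ± 0.26 and -1.32 ± 0.23) and the calcium sensor Stim1 (-1.05 ± 0.22 and -1.19 ± 0.23) were among the 8. So were Pag1, a membrane anchor of Csk (-1.01 ± 0.22 and -2.32 ± 0.30), the adaptor Dok2 (-1.23 ± 0.23 and -1.16 ± 0.23) and the exchange factor Rapgef1 (-1.62 ± 0.25 and -1.21 ± 0.23). The co-receptor Cd4 read -1.13 ± 0.24 and -0.52 ± 0.22. Under median centring 5 of the 60 were at least 2-fold lower and 3 higher on the Cd4Cre array, and 3 lower and 7 higher on the Foxp3Cre array, and 0 were lower on both.

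Markers of other cells differed between the pools beside the module. With Cd4Cre, Cd8a and Cd8b1 were at least 2-fold higher in the deficient pool (summed log2 signal 15.94 in the deficient and 14.66 in the wild-type pool). So were 5 of 6 NK markers (17.96 in the deficient and 14.14 in the wild-type pool) and all 5 neutrophil markers (17.86 in the deficient and 11.25 in the wild-type pool). Of 5 detected B cell markers 2 were at least 2-fold higher (15.96 in the deficient and 14.48 in the wild-type pool; Pax5, which defines the lineage, was not well above background). Of the dendritic markers 2 of 4 were (14.05 in the deficient and 12.19 in the wild-type pool), and of 6 macrophage and monocyte markers 2 were lower and 2 higher (18.00 in the deficient and 16.02 in the wild-type pool). In the deficient pool the last sum was mostly Lyz2, at 17.85 there and 14.27 in the wild-type pool. Lyz2 and Itgam were the 2 higher, and Csf1r (-1.5) and Cd14 (-1.05) the 2 lower, so this sum does not speak for the set. Treg markers summed to 16.04 in the deficient and 17.82 in the wild-type pool. With Foxp3Cre, all 5 neutrophil markers were again at least 2-fold higher (17.26 in the deficient and 15.03 in the wild-type pool), while CD8 T cell markers were even (15.79 in the deficient and 15.77 in the wild-type pool) and 1 of 6 NK markers was higher (15.35 in the deficient and 14.98 in the wild-type pool). Both detected mast cell markers were higher (11.09 in the deficient and 8.73 in the wild-type pool), and all 4 salivary gland markers were lower (12.07 in the deficient and 15.89 in the wild-type pool). CD8 T cells and NK cells also use Lck, Zap70, Lat, Cd247 and Cd2, and CD8 T cells all CD3 chains and Cd5 and Cd6, whereas neutrophils lack the CD3 chains and carry Ptprc and Ptpn6. The part of these cells in the members' ratios was not tested.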

How the data were processed

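RNA was hybridized to 2 two-colour Agilent arrays of 60-base probes, with deficient RNA in Cy5 and wild-type RNA in Cy3 on both, per the labels. Images were read with Agilent Feature Extraction 10.5.1.1 (Cd4Cre array) and 10.7.3.1 (Foxp3Cre array), per the file headers, while the submitters' processing notes name 10.5.1. For every spot, the deposited files hold the intensity of spot and background in both channels, a log10 ratio (Cy5 over Cy3) from the software, the error of this ratio, a deposited p-value from the software's single-array model, and flags. The deposited value table equalled that log10 ratio (largest difference 0), with a median of 0 on each array. Errors in the text are the software's, turned to the log2 scale.

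From the deposited intensities, background was corrected with normexp (offset 50) and ratios were normalized by loess, giving control spots no weight, with limma 3.58.1 (R 4.3.3). Spots flagged as outliers (137 and 155) were dropped before repeated spots were averaged. A gene, keyed by the gene name in the file, took the value of the probe brightest in the mean of both arrays. Pool signals are per channel after loess and Aquantile. Members were counted at 2-fold with no test. Limma tested the mean of both arrays (intercept only, Benjamini-Hochberg over all genes), and was checked on simulated data.

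The members and all gene lists were chosen with earlier results of these data known. All members are accounted for; pool values are given for those past 2-fold on an array, the CD3 chains, Lck, Zap70, Lat, Lcp2 and those whose probes disagree. Of the other pathway genes, those past 2-fold the same way on both arrays and Cd4 are named. The alternatives changed the background correction, offset, scaling, ratio source, probe choice, dim-probe filter, marked spots, 2-fold rule and variance model. The choice of RefSeq mRNA probes was added after seeing the data. Probe coordinates are mm9, per the file headers. One further gene of the pathway list is not reported here.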

Additional observations from a re-analysis of the deposited data

Results flagged for a closer look

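For 7 of the 39 members, the deficient pool lay above the wild-type pool on one array and below it on the other. With 1 array per Cre system the difference between arrays was not tested. The sign was the same for 32 of 39 members, against 9819 of 14410 genes detected on both arrays, so opposite directions were not more common in the module. Cd4Cre minus Foxp3Cre, Ptprc differed by -1.36, the only one of the 7 past 1 on the log2 scale, and its probes also disagreed with each other on both arrays. The CD3 chains Cd3d and Cd3g, neighbours on chromosome 9, differed by -0.57 and -0.56, though with the software ratio Cd3d was below 0 on both arrays. Fyn differed by -0.47 and Ptpn22 by -0.28. Nfatc3 (0.94) and Ppp3ca (0.65) were higher on the Cd4Cre array and lower on the Foxp3Cre array. For Nfatc3 this depends on the probe, as another of its probes read below 0 on both arrays (-0.30 and -0.67).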

How the results depend on the processing

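Median centring in place of loess moved every count of members given for the arrays. It gave 4 at least 2-fold lower and 3 higher with Cd4Cre, 4 lower and 4 higher with Foxp3Cre, and 2 lower (Cblb and Nfatc2) and 1 higher (Cd3d) on both. Of the 14410 genes detected on both arrays, 330 were then at least 2-fold lower and 1088 higher on both. The members' median was then -0.14 with Cd4Cre, and with Foxp3Cre it turned to 0.0689. The share of higher genes among all genes past 2-fold was 68.4% under median centring, 51.8% under loess and 44.7% with the software ratio for Cd4Cre, and 66.6%, 20.3% and 36.4% for Foxp3Cre. The median on the Cd4Cre array was -0.74 with offset 10 and -0.77 with the software ratio or the deposited table, and with these 2 it was -0.62 on the Foxp3Cre array. Under the alternatives other than median centring, 8 to 14 members were at least 2-fold lower with Cd4Cre, 10 to 12 with Foxp3Cre and 4 to 7 on both, and 0 were higher. The share of all genes moved too: with Cd4Cre, 18.7% were lower with the software ratio, where 14 members were, and 8.94% with the mean over probes, where 8 members were. Limma called 311 genes under median centring, 1 of them a member, and 34 genes, 0 of them members, with the filter that asks for signal in every channel. Of 772 single member values, 663 moved by no more than the software error and 42 turned sign, 24 of these under median centring. Of the values past 2-fold, 3 turned sign: Ptprc on the Cd4Cre array (0.26 under median centring), Cd5 on the Foxp3Cre array (0.0689 under median centring) and Grap2 on the Cd4Cre array (0.39 from the brightest RefSeq probe). The cause was not tested. Without median centring, 645 of 694 values moved by no more than the error and 18 turned sign. Both tallies include 78 values with no filter and 74 with the stricter filter, settings that could only drop a value, not move it. They also count the deposited table, which repeats the software ratio. The tallies thus overstate how steady the values were. Leaving out 1 array leaves no residual degree of freedom, so each array's own values stand in for it. No paired analysis was possible because each Cre system has 1 array, whose ratio already sets its own pools against each other. Dim channels limit Nfatc2 and Cblb on the Foxp3Cre array to bounds.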
